A study of Mus musculus with 24 samples.

Results

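Kidney stromal cells with stabilised beta-catenin (SO, the submitters' name for this genotype) were compared with wild-type stromal cells of the same CD1 strain at embryonic day E12.5. The comparison takes 6 of the 24 libraries of the series, the 3 labelled as SO, CD1, E12.5 and the 3 labelled as wild-type, CD1, E12.5, and describes all 13803 genes of the deposited table. Both groups, wild-type included, came from mouse kidneys carrying FoxD1Cre-eGFP, a transgene in which regulatory sequence of the stromal gene Foxd1 drives a fusion of Cre recombinase and green fluorescent protein. Cells were released from dissected kidneys with collagenase and collected by fluorescence-activated cell sorting, and their RNA was sequenced on an Illumina HiSeq instrument. Which allele stabilises beta-catenin was not given in the sources used here. Cells of a genotype came from 3 kidneys according to the series record, and the labels mention a second sort without saying which libraries had one. Nothing says that the libraries of a group came from separate animals, so p-values measure the spread between libraries, which may be technical or may be that of pools. That spread was pooled over the groups of all 24 libraries. Beside the 6 compared, these are SO and wild-type CD1 stroma of E13.5. They also include C57BL/6 stroma, wild-type or deficient in beta-catenin (SD), of E12.5 and E13.5. Cells are collected through the Foxd1-driven reporter, and Foxd1 itself was lower in SO (below), so the gate and the genotype cannot be told apart for genes that go with the Foxd1 level.

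Beta-catenin is the transcriptional effector of canonical Wnt signalling. Without a Wnt ligand, a cytoplasmic complex built on Axin and Apc marks it for destruction, and with one it accumulates, enters the nucleus and activates target genes with DNA-binding factors of the TCF/LEF family. Many of its direct targets, among them Axin2, Nkd1, Notum and Znrf3, encode inhibitors that damp the same pathway, so their transcripts serve as a readout of its activity. In the developing kidney the Foxd1-expressing stroma gives rise to the cortical and medullary interstitium, pericytes and mesangial cells, and sends signals to the nephron progenitors and to the branching ureteric bud beside it.

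The SO libraries held 6.18, 6.43 and 6.67 M (mega) reads and the wild-type libraries 9.56, 10.0 and 9.57 M. Levels below are log2 CPM (counts per mega-read). Pairs of libraries correlated across genes with r between 0.975 and 0.977 in SO and between 0.960 and 0.967 in wild-type. A first principal component with 46.6% of the variance separated the groups. On the second, with 19.1%, wild-type replicate 1 lay at -53.0 and wild-type replicates 2 and 3 at 25.2 and 25.1. Transcripts of other cell types differed between the libraries. The summed CPM of 9 erythroid genes was 997, 205 and 68.4 in SO and 3262, 3378 and 3311 in wild-type, and that of 14 liver genes was 53.7, 44.9 and 45.6 in SO and 332, 302 and 285 in wild-type. The groups did not overlap on either sum. The sum of 16 endothelial genes was 314, 305 and 145 in SO and 159, 543 and 538 in wild-type, and 16 macrophage genes summed to 917, 632 and 608 in SO and to 898, 917 and 884 in wild-type. Of single genes, 0 of 16 macrophage, 0 of 16 endothelial, 1 of 9 erythroid and 2 of 14 liver genes were called, all lower (3.0% of all genes). All SO libraries lay below all wild-type libraries for 8 of the 9 erythroid and 13 of the 14 liver genes, and for 14.0% of all genes. The median log2 difference was -3.76 over the erythroid and -4.78 over the liver genes. At an unadjusted p of 0.05 in limma, 0 macrophage genes and 1 endothelial gene passed. Afp, which encodes alpha-fetoprotein of fetal liver and yolk sac, had 1 read summed over the SO libraries and 3784 over wild-type, a ratio of 2501 (exact 95% counting interval 449 to 98821). Albumin (Alb) had 0 reads in SO and 1472 in wild-type, at least 324-fold lower when 3 reads over the group are taken as the floor, although its call was lost whichever of the 6 libraries was left out (adjusted p from 0.10 to 0.12). Hbb-bh1, an embryonic globin, lost its call without SO replicates 2 or 3 or wild-type replicates 1, 2 or 3 (adjusted p up to 0.28). The stromal markers Meis1 and Pdgfra were high in all 6 libraries, with Meis1 at log2 CPM 8.40, 8.32 and 8.34 in SO and 8.85, 8.70 and 8.70 in wild-type and Pdgfra at 8.98, 9.08 and 9.01 in SO and 9.17, 9.11 and 9.10 in wild-type. The sum of 16 genes of the cortical stroma and its progenitors was lower in SO. It was 7865, 7768 and 7423 CPM in SO and 10464, 10354 and 10083 in wild-type, so the groups did not overlap. The levels of 15 nephron progenitor genes summed to between 541 and 566 CPM in SO and between 562 and 601 in wild-type. The sum of 13 genes of nephron differentiation and podocytes was 397, 411 and 389 CPM in SO and 204, 253 and 245 in wild-type, so these groups did not overlap. Of those 13 genes 3 rose, Cldn1 (3.20), Synpo (1.00) and Cdh6 (0.74, all on the log2 scale), and 0 fell, while the median over the list was -0.37, and 0 were called with the 4 marker sums (erythroid, liver, macrophage and endothelial) in the fit. The part of these transcripts in the results below was not tested. The part of the blood and liver transcripts in the results below was examined only by adding their summed levels to the fit as covariates. Because these sums separate the groups almost as the labels do, that fit cannot tell them apart from the genotype. The outcome of that fit is given in each paragraph on a group of genes, for SO against wild-type at E12.5 only. In sorted bulk cells, fewer cells of a type and less RNA per cell cannot be told apart.

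**Figure D1:**
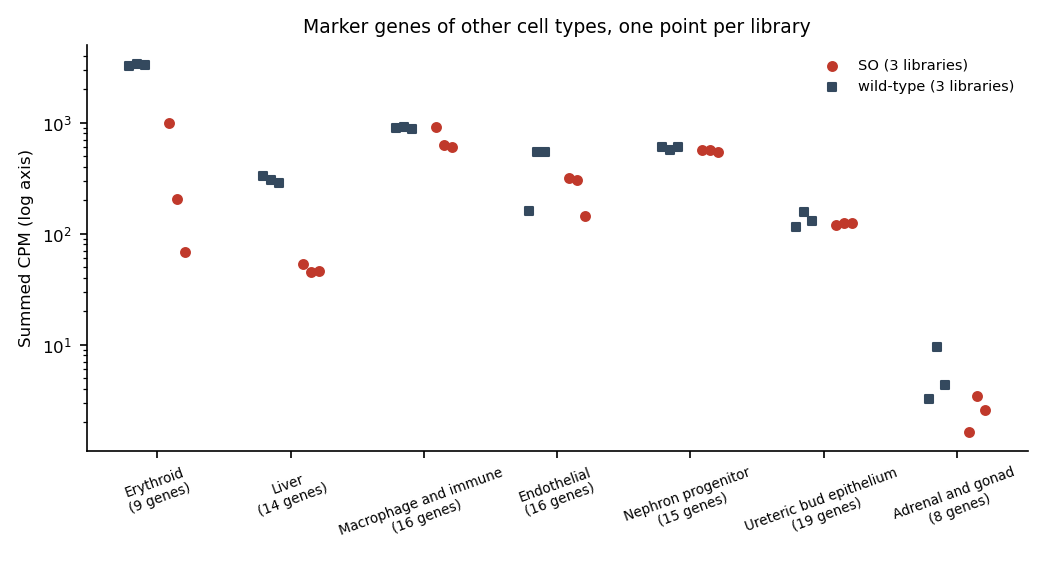
Summed CPM (log axis) of the marker genes of 7 other cell types, with 1 point for each of the 3 SO and 3 wild-type libraries at E12.5. The erythroid sums lie between 68.4 and 997 in SO and between 3262 and 3378 in wild-type, while the nephron progenitor sums lie between 541 and 601 in all 6 libraries.

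In all, 1127 of 13803 genes (8.16%) passed an adjusted p of 0.05 in limma. Of these, 713 (5.17%) were higher in SO and 414 (3.0%) were lower. The counts of called list members given below stand beside these shares of all genes. At least 2-fold differences made up 248 of the rises (1.8% of all genes) and 109 of the falls (0.79%). The median log2 difference was 0.68 among the genes called higher and -0.65 among those called lower, against 0.0033 over all genes. Among the called genes 1120 had SO and wild-type libraries that did not overlap. Over all genes, 17.1% had the 3 SO libraries above the 3 wild-type libraries and 14.0% had them below. A core of 528 genes, 354 higher and 174 lower, was called in all 6 leave-one-out fits, each of which omits 1 of the 6 libraries on its own. Where a call was lost in such a fit, the omitted library is named, and several names stand for several fits. With the erythroid, liver, macrophage and endothelial sums in the fit, 207 genes were called, of which 196 belonged to the 1127.

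Feedback inhibitors of Wnt signalling had the 3 smallest p-values among the rises, those of Apcdd1, Axin2 and Nkd1. Of 7 measured inhibitors that act at the membrane or in the cytoplasm, 5 rose and 0 fell, with a median log2 difference of 2.54 over the list. Axin2 encodes a scaffold of the destruction complex and is the textbook target of beta-catenin. Its log2 CPM was 7.90, 7.85 and 8.15 in SO and 4.56, 4.52 and 4.42 in wild-type, so the lowest SO library lay far above the highest wild-type library (11.1-fold, log2 difference 3.47 ± 0.15, adjusted p = 4.3e-13; ± is the standard error throughout, with 3 libraries a group). Apcdd1, a membrane glycoprotein that binds Wnt ligands, had log2 CPM 9.43, 9.49 and 9.82 in SO and 5.29, 5.20 and 5.47 in wild-type (19.2-fold, log2 difference 4.26 ± 0.18, adjusted p = 2.5e-13). The groups were as clearly apart for Nkd1 and Nkd2, which bind Dishevelled: Nkd1 stood at 8.82, 8.78 and 8.99 in SO and 6.43, 6.32 and 6.24 in wild-type (log2 difference 2.54 ± 0.13, adjusted p = 3.1e-12), and Nkd2 at 6.43, 6.29 and 6.89 in SO and 3.58, 2.93 and 3.60 in wild-type (log2 difference 3.17 ± 0.21, adjusted p = 6.7e-10). Znrf3, a ubiquitin ligase that removes Frizzled receptors from the cell surface, was 6.09, 6.16 and 6.23 in SO and 4.21, 4.25 and 4.25 in wild-type, which is 3.79-fold higher (log2 difference 1.92 ± 0.15, adjusted p = 4.7e-09). Its relative Rnf43 did not pass (log2 difference 1.08 ± 1.14, adjusted p = 0.66), nor did Trabd2b, a membrane protease that cleaves Wnt ligands (log2 difference -0.61 ± 0.23, adjusted p = 0.10). All 5 rises held in all 6 leave-one-out fits and with the 4 marker sums in the fit. The antisense gene Gm11670 overlaps Axin2, and since the sources used here do not give the strand of counting its reads cannot be separated from those of Axin2.

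Extracellular antagonists moved both ways. Of 14 measured genes, which are secreted antagonists and the Dickkopf receptor gene Kremen1, 5 rose and 2 fell, with a median log2 difference of 0.67, and 3 of the rises were called with the 4 marker sums in the fit. Notum, a secreted enzyme that strips the lipid from Wnt ligands, had few reads in wild-type. Its log2 CPM was 7.18, 7.31 and 7.46 in SO and -2.68, 0.51 and 0.11 in wild-type, from 3080 reads summed over the SO libraries and 25 over wild-type (256-fold, log2 difference 8.0 ± 1.32, adjusted p = 0.00030). The antisense genes Notumos and Myadml2os overlap Notum, and Notumos shares a stretch of near-identical sequence with it. Wif1, which binds Wnt proteins, rose (log2 difference 3.75 ± 0.80, adjusted p = 0.0038), Kremen1 4.55-fold (log2 difference 2.19 ± 0.16, adjusted p = 2.6e-09), and Frzb, a soluble Frizzled-related protein, 2.82-fold (log2 difference 1.5 ± 0.21, adjusted p = 4.7e-05). These rises were called whichever library was left out. Draxin rose by 1.47 on the log2 scale and lost its call whichever of the 6 libraries was left out (adjusted p from 0.0543 to 0.12). The falls were those of Dkk1 (log2 difference -0.84 ± 0.21, adjusted p = 0.014) and Sfrp4 (log2 difference -2.84 ± 0.79, adjusted p = 0.026). Dkk1 binds Wnt co-receptors and Sfrp4 binds Wnt ligands. Dkk1 lost its call without SO replicates 1 or 2 or wild-type replicates 1 or 3 (adjusted p up to 0.068), and Sfrp4 without SO replicates 2 or 3 or wild-type replicates 1 or 2 (adjusted p up to 0.20). Sfrp1, the Frizzled-related antagonist, had log2 CPM 8.82, 8.87 and 8.80 in SO and 9.07, 9.02 and 9.03 in wild-type (log2 difference -0.21 ± 0.15, adjusted p = 0.46) and was not called.

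Of 9 nuclear partners and co-activators of beta-catenin, with Sp5 among them, 3 rose and 0 fell. Tcf7, whose log2 CPM was 6.64, 6.65 and 6.70 in SO and 2.94, 2.23 and 2.71 in wild-type, rose 16.5-fold (log2 difference 4.04 ± 0.31, adjusted p = 5.2e-09). Lef1 stood at 7.36, 7.23 and 7.50 in SO and 3.66, 4.04 and 3.85 in wild-type and rose 11.4-fold (log2 difference 3.51 ± 0.42, adjusted p = 5.9e-06). Both encode DNA-binding partners of beta-catenin and both are known as its targets. Sp5, a zinc-finger repressor induced by Wnt, was measured at 4.78, 4.44 and 5.01 in SO and 1.23, -0.10 and 1.14 in wild-type (log2 difference 3.98 ± 0.90, adjusted p = 0.0057), with 521 reads summed over the SO libraries and 52 over wild-type. All 3 held in all 6 leave-one-out fits, Tcf7 and Lef1 were called with the 4 marker sums, and Sp5 was called neither with these nor with the erythroid sum alone. The other family members Tcf7l1 and Tcf7l2 had log2 differences of -0.09 and -0.31 (adjusted p = 0.62 and 0.21), and the co-activators Bcl9, Bcl9l, Pygo1 and Pygo2 were not called either. Gm43352 overlaps Lef1 on the other strand.

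Because TCF/LEF factors bind a short DNA element, promoters were searched for it. Promoter windows ran from 250 bases before to 50 after a start site in RefSeq (GRCm38.p6). The search took the word CTTTGAA, the word CTTTGAT, the word CTTTGTA and the word CTTTGTT on both strands, which differ only in their last bases and so cannot match at the same position of a strand. A match was present in 16.9% of all 32851 promoters of the table and in 11.3% of the 13702 promoters that belong to genes of the deposited file, of which 10739 genes had one. The share was 16.9% of 248 promoters of genes called at least 2-fold higher and 11.2% of 125 promoters of genes at least 2-fold lower. Without the 2-fold minimum the order was reversed. It was then 11.955% of 711 promoters of genes called higher and 14.66% of 423 promoters of genes called lower. Among genes not called it was 11.2% of 12568 promoters. By gene, a match was held by 22.3% of 175 genes at least 2-fold higher and 12.9% of 85 at least 2-fold lower. It was held by 14.8% of 528 genes called higher, 16.8% of 309 called lower and 13.3% of 9902 not called. Whether the match goes with the rises was not tested. Genes called at least 2-fold higher had 1.42 promoters each and genes not called 1.27. Of 20 genes that rose, most of them Wnt pathway members and all chosen after their values were seen, 16 were in the table and 3 held a match in some window. The windows with a match and that of Axin2, which holds none, are printed 5′ to 3′ with the matching bases in capitals, to show where the element stands in those that hold it and what a window without it looks like. Sp5 (chr2:70474673-70474972, + strand) has matches 222 and 104 bases before the start site. Lef1 (chr3:131156044-131156343, + strand, 1 of its 4 start sites) has 1 match 147 bases before it, and Tnfrsf19 (chr14:61037938-61038237, - strand, 1 of its 2 start sites) has 1 match 202 bases before it. The Axin2 window is chr11:108920099-108920398 on the + strand.
Sp5: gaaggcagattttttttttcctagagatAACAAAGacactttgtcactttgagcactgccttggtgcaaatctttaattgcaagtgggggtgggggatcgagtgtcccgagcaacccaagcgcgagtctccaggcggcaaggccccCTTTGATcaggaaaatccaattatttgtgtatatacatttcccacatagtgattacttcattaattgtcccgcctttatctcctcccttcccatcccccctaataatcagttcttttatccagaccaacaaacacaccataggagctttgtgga
Lef1: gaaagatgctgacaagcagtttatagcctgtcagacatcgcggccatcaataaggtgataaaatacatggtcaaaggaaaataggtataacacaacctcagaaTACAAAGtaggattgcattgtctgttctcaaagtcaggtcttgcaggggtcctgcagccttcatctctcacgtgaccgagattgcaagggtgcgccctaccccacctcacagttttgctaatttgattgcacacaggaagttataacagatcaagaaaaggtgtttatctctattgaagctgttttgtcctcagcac
Tnfrsf19: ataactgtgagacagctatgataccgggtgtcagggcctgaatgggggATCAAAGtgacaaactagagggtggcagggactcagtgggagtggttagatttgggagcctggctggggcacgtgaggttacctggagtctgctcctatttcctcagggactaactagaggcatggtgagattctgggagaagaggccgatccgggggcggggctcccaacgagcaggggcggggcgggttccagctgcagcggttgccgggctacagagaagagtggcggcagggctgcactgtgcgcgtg
Axin2: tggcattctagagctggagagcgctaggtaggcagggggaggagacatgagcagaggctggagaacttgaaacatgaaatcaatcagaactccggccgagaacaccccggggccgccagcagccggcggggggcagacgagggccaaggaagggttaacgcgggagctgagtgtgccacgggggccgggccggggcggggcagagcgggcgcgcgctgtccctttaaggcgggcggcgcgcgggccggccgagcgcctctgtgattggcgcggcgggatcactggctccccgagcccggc
A match is a description of letters and not a binding site, and a window without one says nothing about the factor, which can act from elsewhere in or around a gene.

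Some receptors and ligands of the pathway differed. Among 18 receptors and co-receptors 5 rose and 1 fell, 33.3% called against 8.16% of all genes. Of the rises 4 were called both in all 6 leave-one-out fits and with the 4 marker sums. Fzd10 had the largest difference of the receptors. Its log2 CPM was 6.43, 6.53 and 6.66 in SO and 1.52, 1.38 and 2.06 in wild-type (29.5-fold, log2 difference 4.89 ± 0.56, adjusted p = 3.3e-06), from 1792 reads summed over the SO libraries and 93 over wild-type. Lgr4, which binds R-spondins and so protects Frizzled receptors from Znrf3, was 7.93, 7.91 and 7.94 in SO and 6.82, 6.83 and 6.85 in wild-type and rose 2.13-fold (log2 difference 1.09 ± 0.10, adjusted p = 1.3e-07). Fzd1 rose 1.87-fold and Fzd7 1.69-fold (adjusted p = 4.7e-05 and 1.7e-05). Fzd3 was called higher (0.52) and Fzd8 lower (-0.53), but Fzd3 lost its call without SO replicate 2 or wild-type replicate 1 (adjusted p up to 0.0528) and Fzd8 without SO replicates 1 or 3 or wild-type replicates 1, 2 or 3 (adjusted p up to 0.12). The co-receptors Lrp5 and Lrp6 had log2 differences of -0.06 and 0.09 (adjusted p = 0.74 and 0.68). Of 18 Wnt ligands, R-spondins and genes for Wnt secretion 3 rose and 0 fell: Wnt5a (log2 difference 0.71 ± 0.15, adjusted p = 0.0029) and Wnt11 (log2 difference 0.79 ± 0.16, adjusted p = 0.0022), ligands best known for signalling without beta-catenin, and Wls (log2 difference 0.50 ± 0.08, adjusted p = 0.00038), the carrier that brings Wnt ligands to the cell surface. These 3 (16.7% of the 18) held in all 6 leave-one-out fits, and 0 of 18 were called with the 4 marker sums in the fit.

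Apart from Axin2, counted above with the feedback inhibitors, no gene listed for the control of beta-catenin itself passed the test. Of 11 genes of beta-catenin, its destruction complex and Dishevelled 0 were called in either direction by limma and 0 passed an unadjusted p of 0.05, with a median log2 difference of 0.04. Ctnnb1, which encodes beta-catenin, had log2 CPM 10.61, 10.68 and 10.62 in SO and 10.77, 10.74 and 10.75 in wild-type. The SO libraries lay below the wild-type libraries (log2 difference -0.12 ± 0.06, adjusted p = 0.31), a difference that missed the threshold. A whole-gene value does not check the genotype label, since a stabilising deletion of an exon would leave most of the transcript, and part of a transcript of the neighbouring gene Ulk4 overlaps Ctnnb1 on the other strand. Of the complex, the scaffolds Apc and Axin1 had log2 differences of 0.19 and 0.09, and the kinase gene Gsk3b 0.05 (adjusted p = 0.33, 0.63 and 0.84).

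Of 24 other genes known as Wnt targets in various tissues, 8 rose and 1 fell, and 5 of the rises held in all 6 leave-one-out fits. Msx1, a homeobox repressor, rose 44.2-fold. Its log2 CPM was 3.69, 4.10 and 3.39 in SO and -4.26, 0.51 and -1.47 in wild-type, from 257 reads summed over the SO libraries and 17 over wild-type (log2 difference 5.46 ± 1.16, adjusted p = 0.0035). Prdm1, a transcriptional repressor, was at 5.40, 5.73 and 5.98 in SO and 0.95, 0.94 and 1.74 in wild-type (log2 difference 4.49 ± 0.99, adjusted p = 0.0047), and Tnfrsf19, a membrane receptor of the tumour necrosis factor family, at 7.24, 7.46 and 7.58 in SO and 3.00, 3.73 and 3.52 in wild-type (log2 difference 4.01 ± 0.41, adjusted p = 5.2e-07). Twist1 and Tcf4, a pair of basic helix-loop-helix factors, rose 1.81-fold and 1.76-fold (adjusted p = 0.00088 and 1.3e-07). Called with all 6 libraries but lost when 1 was left out were Cdx1, lost without SO replicates 2 or 3 or wild-type replicates 2 or 3 (adjusted p up to 0.14), Jag1, lost without SO replicates 1 or 2 or wild-type replicate 1 (adjusted p up to 0.082), Ephb3, lost without SO replicates 2 or 3 or wild-type replicates 2 or 3 (adjusted p up to 0.12), and the fall of Cd44, lost without SO replicates 2 or 3 or wild-type replicates 2 or 3 (adjusted p up to 0.15). The growth genes usually cited as Wnt targets were among the 15 not called. Ccnd1, which encodes cyclin D1, had log2 CPM 8.04, 7.96 and 8.13 in SO and 7.67, 7.68 and 7.69 in wild-type (log2 difference 0.36 ± 0.15, adjusted p = 0.16), so its groups did not overlap although it missed the threshold, and Myc had 5.30, 5.13 and 5.25 in SO and 5.31, 5.35 and 5.55 in wild-type (log2 difference -0.18 ± 0.17, adjusted p = 0.63). With the 4 marker sums in the fit 2 of the 8 rises, those of Tnfrsf19 and Tcf4, were called.

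**Figure D2:**
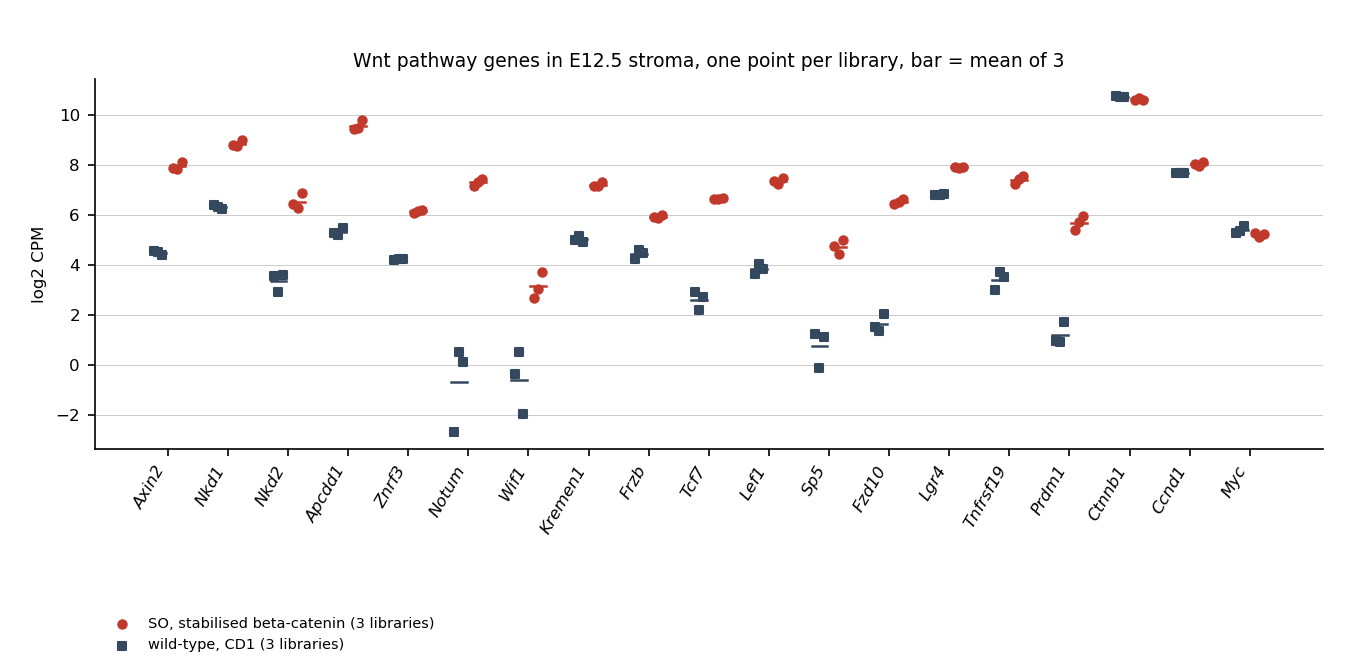
Log2 CPM of 19 Wnt pathway genes in the 3 SO and 3 wild-type libraries at E12.5, with 1 point per library and a bar at the mean of 3. Axin2 lies at 7.85 to 8.15 in SO and at 4.42 to 4.56 in wild-type, and Ctnnb1, Ccnd1 and Myc do not pass the test.

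Several genes of the cortical stroma and its progenitors fell. Of 16 measured, 6 fell and 0 rose (3.0% of all genes fell), 4 of them held in all 6 leave-one-out fits, and the median log2 difference was -0.38. Sall1, a zinc-finger factor required for kidney formation, had log2 CPM 6.84, 6.55 and 6.69 in SO and 8.30, 8.29 and 8.29 in wild-type and was 3.03-fold lower (log2 difference -1.60 ± 0.09, adjusted p = 4.8e-11). Aldh1a2, the enzyme that makes retinoic acid in the stroma, was 8.55, 8.22 and 8.26 in SO and 9.92, 9.73 and 9.80 in wild-type and 2.78-fold lower (log2 difference -1.47 ± 0.17, adjusted p = 2.2e-06). Foxd1, the forkhead factor that defines this lineage, was 8.13, 8.11 and 8.12 in SO and 9.05, 8.82 and 8.81 in wild-type, 1.71-fold lower (log2 difference -0.77 ± 0.15, adjusted p = 0.0015). Ntn1, which encodes the guidance cue netrin 1, was 1.93-fold lower (log2 difference -0.95 ± 0.20, adjusted p = 0.0034). Foxd2 was called lower by a smaller difference (-0.48) and lost its call without SO replicates 1 or 3 or wild-type replicates 1, 2 or 3 (adjusted p up to 0.16). Of the list, 10 members were not called, among them the stromal factors Meis1 (log2 difference -0.40 ± 0.13, adjusted p = 0.072) and Tcf21 (log2 difference 0.38 ± 0.20, adjusted p = 0.30) and the receptor gene Pdgfra (log2 difference -0.10 ± 0.14, adjusted p = 0.76). The falls of Sall1, Foxd1 and Aldh1a2 were called with the 4 marker sums in the fit.

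Among 6 medullary stroma genes 3 rose and 1 fell, with a median log2 difference of 0.03. Their summed level was lower in SO, at 1533, 1608 and 1472 CPM against 1751, 1643 and 1673 in wild-type. Alx1, a homeobox gene of the medullary stroma, had log2 CPM 6.70, 6.54 and 6.76 in SO and 4.47, 4.38 and 3.99 in wild-type (5.23-fold, log2 difference 2.39 ± 0.57, adjusted p = 0.0092), and Penk, which encodes the opioid precursor proenkephalin, had 5.47, 5.12 and 6.07 in SO and 1.80, 1.49 and 2.61 in wild-type (12-fold, log2 difference 3.58 ± 0.62, adjusted p = 0.00051). Zeb2 rose 1.38-fold and the cell-cycle inhibitor Cdkn1c was 1.33-fold lower (adjusted p = 0.0055 and 0.0021). All 4 held in all 6 leave-one-out fits, and 0 of the 6 were called with the 4 marker sums. Of 12 genes of the ureteral mesenchyme, the coat of the ureter, 5 rose and 1 fell, with a median log2 difference of 0.73. Tbx3, a T-box repressor, was 6.13, 5.98 and 6.11 in SO and 3.47, 4.16 and 3.93 in wild-type in log2 CPM and rose 4.66-fold (log2 difference 2.22 ± 0.31, adjusted p = 4.0e-05). Its relative Tbx2 rose 1.51-fold (adjusted p = 0.0049), and Car3, a carbonic anhydrase, 9.28-fold (log2 difference 3.21 ± 0.33, adjusted p = 5.4e-07). Tshz3 rose 1.95-fold while Tshz2 was 1.33-fold lower (adjusted p = 0.0015 and 0.0016), and Tshz2 shares near-identical sequence with Gm26883. Tbx18, the T-box gene used to mark this mesenchyme, was not called (log2 difference 0.22 ± 0.16, adjusted p = 0.47). The 6 calls held in all 6 leave-one-out fits, and 3 rises and the fall were called with the 4 marker sums.

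Genes of differentiated mesenchyme were examined as 3 lists. Of 15 smooth muscle contractile genes 0 rose and 1 fell, 6.67% called against 8.16% of all genes. The fall was that of Smtn (log2 difference -0.38 ± 0.08, adjusted p = 0.0028). Acta2, smooth muscle actin, had log2 CPM 7.14, 7.35 and 7.16 in SO and 6.78, 7.19 and 7.04 in wild-type (log2 difference 0.22 ± 0.27, adjusted p = 0.73), and Myh11, smooth muscle myosin, had 3.82, 3.73 and 2.84 in SO and 3.53, 3.94 and 3.97 in wild-type (log2 difference -0.35 ± 0.47, adjusted p = 0.75). Of 11 pericyte and mural genes 3 rose and 1 fell: Rgs5, a signalling regulator of pericytes, rose 2.86-fold (log2 difference 1.51 ± 0.15, adjusted p = 5.2e-07), Angpt1, a ligand of the endothelial receptor Tie2, 1.75-fold (log2 difference 0.81 ± 0.17, adjusted p = 0.0027), and the endothelin receptor Ednra 1.52-fold (adjusted p = 0.0068), while Cspg4 was 1.73-fold lower (adjusted p = 0.0026). Among 16 cartilage and bone genes 4 rose and 0 fell. Runx2, the bone master factor, was 5.32, 5.58 and 5.49 in SO and 2.48, 2.40 and 2.66 in wild-type in log2 CPM (7.75-fold, log2 difference 2.95 ± 0.32, adjusted p = 1.6e-06), and Sp7, which acts after it, rose 5.6-fold from 208 reads summed over the SO libraries and 60 over wild-type. The cartilage collagen Col2a1 rose 7.07-fold (log2 difference 2.82 ± 0.53, adjusted p = 0.0011) and Col11a1 2.39-fold (log2 difference 1.26 ± 0.21, adjusted p = 0.00038). Sox9, the cartilage factor, was not called (log2 difference 0.74 ± 0.27, adjusted p = 0.10). All 4 rises held in all 6 leave-one-out fits, and with the 4 marker sums Runx2 and Rgs5 were the only genes of these 3 lists called.

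**Figure D3:**
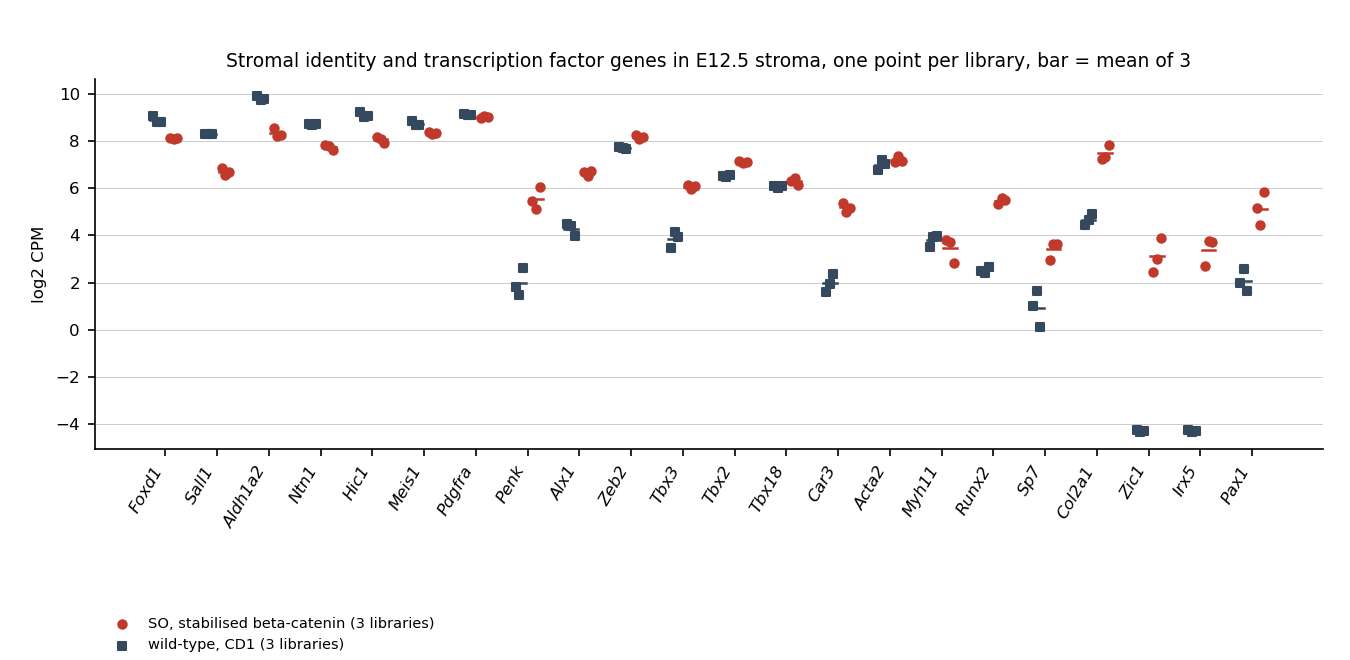
Log2 CPM of 22 stromal identity and transcription factor genes in the 3 SO and 3 wild-type libraries at E12.5, with 1 point per library and a bar at the mean of 3. Sall1 lies at 6.55 to 6.84 in SO and 8.29 to 8.30 in wild-type, and for Zic1 and Irx5 no wild-type library holds a read.

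Transcription factor genes with few or no reads in wild-type stroma were detected in SO. All 5 Zic and Iroquois genes of the deposited table rose. The list holds only genes that the authors' filter kept, and 2 of them, Zic1 and Irx5, had no wild-type reads in this comparison. The share of 5 of 5 may thus be set in part by the filter. Zic1 had 183 reads summed over the SO libraries and 0 in wild-type, at least 92.3-fold higher against the same floor of 3 reads, and Irx5 had 214 against 0, at least 108-fold higher. Irx6 had 85 reads against 3, a ratio of 42.9 (exact 95% counting interval 14.2 to 212). Zic2 rose 31.5-fold (log2 difference 4.98 ± 1.07, adjusted p = 0.0039) with 163 reads summed over the SO libraries and 13 over wild-type, and Irx3 20.3-fold (log2 difference 4.35 ± 1.25, adjusted p = 0.031). Irx3 lost its call without SO replicates 1, 2 or 3 or wild-type replicate 1 (adjusted p up to 0.22). Zic4 overlaps Zic1 on the other strand, so part of the Zic1 reads could be its own. Of 4 T-box genes 3 rose, which were Tbx1 (3.52-fold, log2 difference 1.81 ± 0.38, adjusted p = 0.0030), Tbx2 and Tbx3. Of 12 Dlx, Msx, Lhx, Alx, Prrx and Pitx homeobox genes 5 rose and 0 fell. Beside Msx1 and Alx1 these were Pitx1 (7.07-fold, log2 difference 2.82 ± 0.56, adjusted p = 0.0020), Prrx1 (1.75-fold, log2 difference 0.81 ± 0.17, adjusted p = 0.0028) and Prrx2, whose call was lost without wild-type replicate 2 (adjusted p = 0.0575). With the 4 marker sums in the fit, 2 Zic and Iroquois genes, 2 T-box genes and 0 of the homeobox genes were called.

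Other factor families moved less uniformly. In the Pax and sine oculis families Pax1 (8.4-fold, log2 difference 3.07 ± 0.68, adjusted p = 0.0050), a factor of the vertebral column, and Six4 (2.57-fold, adjusted p = 4.1e-05) were higher and Six5 was lower (log2 difference -0.40 ± 0.09, adjusted p = 0.0068). Twist1, Twist2 and Zeb2, all regulators of mesenchymal identity, rose among 14 Gata, Hand, Twist, Snai and Zeb genes, Twist2 2.24-fold (log2 difference 1.16 ± 0.23, adjusted p = 0.0016). Gata2 was called higher too and Gata5 lower, the former lost without wild-type replicate 1 (adjusted p = 0.0503) and the latter without SO replicates 1 or 3 or wild-type replicates 1, 2 or 3 (adjusted p up to 0.22). Of 25 forkhead genes 3 rose and 3 fell, 24% called against 8.16% of all genes. Foxm1, a factor of dividing cells, was 1.49-fold higher (log2 difference 0.57 ± 0.09, adjusted p = 0.00021) and Foxp2 1.63-fold higher (log2 difference 0.70 ± 0.17, adjusted p = 0.0082). Of 33 Hox genes, which set position along the body axis, 1 rose and 4 fell (15.2% called). Of these calls 0 held in all 6 leave-one-out fits. Hoxb8 had the largest of these falls (log2 difference -1.23 ± 0.38, adjusted p = 0.0456) and was lost whichever of the 6 libraries was left out (adjusted p from 0.082 to 0.13). Pax1, Six4 and Six5 were not called with the 4 marker sums in the fit, and the calls left were 1 rise of the Gata, Hand, Twist, Snai and Zeb genes, that of Gata2, 1 fall of the forkhead genes, that of Foxd1, and 1 fall of the Hox genes, that of Hoxb3.

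Genes of several signalling pathways differed in both directions. Gdnf, the ligand that drives ureteric bud branching, had log2 CPM 5.25, 4.42 and 4.80 in SO and 6.56, 6.32 and 6.48 in wild-type, 3.1-fold lower (log2 difference -1.63 ± 0.21, adjusted p = 1.9e-05). Gfra2, a co-receptor gene for ligands of the GDNF family, rose 5.56-fold (log2 difference 2.47 ± 0.29, adjusted p = 3.7e-06), and the remaining 5 of 7 genes of that pathway were not called. In the FGF pathway 1 of 20 genes rose and 4 fell, beside 5.17% and 3.0% of all genes. The rise was Fgfr2, a receptor, at 7.45, 7.60 and 7.64 in SO and 6.14, 6.17 and 6.25 in wild-type (log2 difference 1.37 ± 0.15, adjusted p = 1.1e-06). Of the falls 3 were genes that FGF and GDNF signalling induce, namely Spry1, an inhibitor (log2 difference -0.78 ± 0.09, adjusted p = 3.9e-06), Etv5 (log2 difference -0.70 ± 0.12, adjusted p = 0.00058) and Etv4 (log2 difference -1.0 ± 0.19, adjusted p = 0.0011), and the fourth, the ligand Fgf10 (log2 difference -0.88 ± 0.24, adjusted p = 0.021), was lost without SO replicates 1 or 3 or wild-type replicates 1 or 3 (adjusted p up to 0.11). Retinoic acid genes numbered 15, with 1 rise and 4 falls, 33.3% called against 8.16% of all genes. The falls of Aldh1a2 and of Ecm1 (log2 difference -0.78 ± 0.13, adjusted p = 0.00047), a matrix protein induced by retinoic acid, held in all 6 leave-one-out fits. Those of Dhrs3 and Crabp2 and the rise of the retinol transporter Stra6 did not hold, Dhrs3 being lost without SO replicates 2 or 3 or wild-type replicate 1 (adjusted p up to 0.083), Crabp2 without SO replicates 1 or 3 or wild-type replicates 1, 2 or 3 (adjusted p up to 0.084) and Stra6 without SO replicates 1, 2 or 3 or wild-type replicates 2 or 3 (adjusted p up to 0.12). With the 4 marker sums in the fit the calls of Gdnf, Gfra2, Fgfr2, Spry1, Etv5 and Aldh1a2 were kept. Gdnf is also on the list of nephron progenitor genes and Etv4 on that of the ureteric bud epithelium. Which cells these transcripts came from was not tested.

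In the BMP pathway 2 of 25 genes rose and 1 fell, 12% called against 8.16% of all genes. Grem1, a secreted BMP antagonist, rose 9.66-fold (log2 difference 3.27 ± 0.73, adjusted p = 0.0053). Its log2 CPM was 4.02, 4.16 and 4.16 in SO and 0.78, 1.27 and 0.47 in wild-type. Bmp7 rose as well (log2 difference 1.56 ± 0.36, adjusted p = 0.0078) but was lost without wild-type replicate 1 (adjusted p = 0.0502), and Bmper, an extracellular BMP modulator, was 1.55-fold lower (log2 difference -0.63 ± 0.13, adjusted p = 0.0022). Of 11 Hedgehog genes 3 rose and 1 fell. Ptch1, the receptor and a standard target of the pathway, rose 1.83-fold (log2 difference 0.87 ± 0.20, adjusted p = 0.0064) and Gli2 1.39-fold (log2 difference 0.48 ± 0.11, adjusted p = 0.0052), while the rise of Gli3 was lost whichever of the 6 libraries was left out (adjusted p from 0.0514 to 0.13). The fall of Boc (adjusted p = 0.0493) was lost whichever of the 6 libraries was left out (adjusted p from 0.088 to 0.13). TGF-beta genes numbered 15, of which 3 rose and 1 fell. Ltbp1, which tethers latent TGF-beta to the matrix, rose 2.07-fold (log2 difference 1.05 ± 0.20, adjusted p = 0.0012), and Tgfbi, a protein induced by TGF-beta, was 1.41-fold lower (log2 difference -0.50 ± 0.09, adjusted p = 0.00081). Fst was lost without SO replicate 3 or wild-type replicate 3 (adjusted p up to 0.086) and Tgfbr1 without SO replicate 2 or wild-type replicates 1 or 3 (adjusted p up to 0.089). Of 18 Notch genes 2 (11.1%) rose and 0 of these held in all 6 leave-one-out fits, since Notch2 was lost whichever of the 6 libraries was left out (adjusted p from 0.083 to 0.17) and Jag1 as given above. Among 12 insulin-like growth factor genes 1 rose and 3 fell, with Igfbp7 3.3-fold lower (log2 difference -1.72 ± 0.34, adjusted p = 0.0019) and the imprinted RNA H19 1.52-fold lower (log2 difference -0.61 ± 0.09, adjusted p = 4.4e-05). Igfbp2 lost its call without SO replicate 3 or wild-type replicates 1 or 3 (adjusted p up to 0.13) and Igfbp6 without SO replicates 1 or 3 or wild-type replicates 1 or 2 (adjusted p up to 0.081). Of the BMP and TGF-beta genes, Bmper and Tgfbi were called with the 4 marker sums in the fit, and Grem1, Bmp7 and Ltbp1 were not. Of the Hedgehog, Notch and insulin-like growth factor genes 0 were called with these sums, and with the erythroid sum alone 0 of the 3 Hedgehog rises were.

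Genes of axon guidance and protocadherins rose more often than they fell, as did all genes (5.17% against 3.0%). Of 14 semaphorins, neuropilins and plexins 4 rose and 0 fell, each in every fit that left out 1 library. Sema3a, a repulsive cue for axons and vessels, had log2 CPM 6.88, 6.93 and 7.11 in SO and 4.84, 4.69 and 4.73 in wild-type (4.65-fold, log2 difference 2.22 ± 0.20, adjusted p = 1.1e-07). Sema3c rose 3.62-fold, Sema3e 7.04-fold and the semaphorin receptor gene Nrp2 3.69-fold (adjusted p = 3.0e-06, 0.0011 and 0.00067). Of 14 netrin, Slit and Robo genes 4 rose and 1, Ntn1, fell. Dcc and Unc5d, members of the netrin receptor families, rose 3.54-fold and 3.5-fold (adjusted p = 0.0020 and 0.00030), and the Slit receptors Robo1 and Robo2 1.77-fold and 1.84-fold (adjusted p = 7.2e-05 and 0.00027). Of 19 ephrin and Eph genes 6 rose and 1 fell. Epha5 stood at 1.42, 2.11 and 1.88 in SO and -2.68, -0.64 and -1.96 in wild-type in log2 CPM (11.8-fold, log2 difference 3.56 ± 0.61, adjusted p = 0.00047), and Epha4, Epha7 and the fall of Efnb1 also held in all 6 leave-one-out fits. The rises of Efnb2, Epha1 and Ephb3 did not. Efnb2 was lost without SO replicate 3 or wild-type replicate 1 (adjusted p up to 0.091) and Epha1 without wild-type replicate 2 (adjusted p = 0.0539). Of 12 protocadherins 4 rose, each in all 6 leave-one-out fits, with Pcdh10 at 5.32, 5.48 and 6.00 in SO and 2.48, 2.84 and 3.07 in wild-type (log2 difference 2.81 ± 0.37, adjusted p = 2.3e-05) and Pcdh19 2.67-fold higher (log2 difference 1.42 ± 0.19, adjusted p = 3.4e-05). Of 17 cadherins 1 rose, Cdh6, and 1 fell, Cdh24, 11.8% called against 8.16% of all genes. The call of Cdh24 was lost without SO replicates 1 or 3 or wild-type replicates 1 or 2 (adjusted p up to 0.22). With the 4 marker sums in the fit 2 semaphorin genes, 2 protocadherins, 1 Robo gene, 1 ephrin and 0 cadherins were called.

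Matrix genes were called in shares below and above that of all genes (8.16%). Of 28 matrix glycoproteins and proteoglycans 1 (3.57%) rose, the proteoglycan Vcan (log2 difference 0.65 ± 0.12, adjusted p = 0.0010), and of 25 collagens 4 (16%) rose and 0 of these held in all 6 leave-one-out fits: Col4a5, Col12a1, Col14a1 and Col23a1. Col12a1 lost its call whichever of the 6 libraries was left out (adjusted p from 0.080 to 0.13), Col14a1 whichever of the 6 libraries was left out (adjusted p from 0.073 to 0.19), Col4a5 without SO replicates 2 or 3 or wild-type replicate 1 (adjusted p up to 0.0600) and Col23a1 without SO replicate 2 or wild-type replicates 1, 2 or 3 (adjusted p up to 0.13). Of 18 integrins 1 rose and 2 fell, with Itga9 1.62-fold lower (log2 difference -0.69 ± 0.10, adjusted p = 8.9e-05). Of 19 vascular growth factor genes 3 rose, each in all 6 leave-one-out fits, and Pdgfc, a ligand of the PDGF receptor alpha, rose 5.97-fold (log2 difference 2.58 ± 0.23, adjusted p = 8.0e-08) at log2 CPM 7.02, 7.11 and 7.35 in SO and 4.44, 4.71 and 4.59 in wild-type. Once the 4 marker sums were in the fit, 0 matrix glycoproteins, 0 collagens, 1 integrin (Itga9) and 2 vascular factors (Pdgfc and Sema3c) were called.

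Many genes of DNA replication and mitosis rose by small amounts. Of 30 measured, 14 rose and 0 fell (5.17% of all genes rose), 7 of them in all 6 leave-one-out fits, and the median log2 difference was 0.31. Kif11, a spindle motor, was 7.71, 7.70 and 7.75 in SO and 7.15, 6.96 and 6.99 in wild-type in log2 CPM (log2 difference 0.68 ± 0.10, adjusted p = 0.00012), Top2a, the topoisomerase of dividing cells, 9.78, 9.74 and 9.81 in SO and 9.20, 9.18 and 9.26 in wild-type (log2 difference 0.56 ± 0.09, adjusted p = 0.00024), and Aurkb, a mitotic kinase, 6.56, 6.56 and 6.80 in SO and 6.24, 6.00 and 6.04 in wild-type (log2 difference 0.55 ± 0.10, adjusted p = 0.00058). In each of these the groups did not overlap. Of the 6 Mcm genes, which encode the replicative helicase, 0 were called by limma and 0 passed an unadjusted p of 0.05, as with Mcm2 (log2 difference -0.03 ± 0.07, adjusted p = 0.88) and Mcm5 (log2 difference 0.02 ± 0.06, adjusted p = 0.91). Mki67, the proliferation marker, rose (log2 difference 0.38 ± 0.11, adjusted p = 0.026) but was lost without SO replicates 1 or 3 or wild-type replicates 1 or 3 (adjusted p up to 0.10). With the 4 marker sums in the fit 1 of the 30 genes was called, and with the erythroid sum alone 7. Among cell-cycle regulators Cdk6 rose 1.81-fold (log2 difference 0.86 ± 0.10, adjusted p = 3.3e-06) and Mycl 1.84-fold (log2 difference 0.88 ± 0.12, adjusted p = 4.6e-05). Cdkn2b had 26 reads in SO against 2 in wild-type, a ratio of 19.7 (exact 95% counting interval 4.92 to 171), and was lost without SO replicates 1 or 3 or wild-type replicates 2 or 3 (adjusted p up to 0.097). Cdk6 and Mycl were called with the 4 marker sums, and Cdkn2b was not.

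Some cytosolic ribosomal protein genes fell. Of 77 measured, 22 fell and 1 rose (3.0% of all genes fell), 6 of the falls in all 6 leave-one-out fits, with a median log2 difference of -0.24. Near-identical copies elsewhere in the genome were found for 17 of the 23 called, so their counts depend on how the authors' counting divided shared reads. With the 4 marker sums in the fit 1 of the 22 falls was called, and with the erythroid sum 6. The summed erythroid level was lower in all 3 SO libraries, and its part in this result was not tested beyond that fit. Nuclear genes of oxidative phosphorylation gave 0 calls among 76 in limma (4 at an unadjusted p of 0.05), with a median of -0.05.

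**Figure D4:**
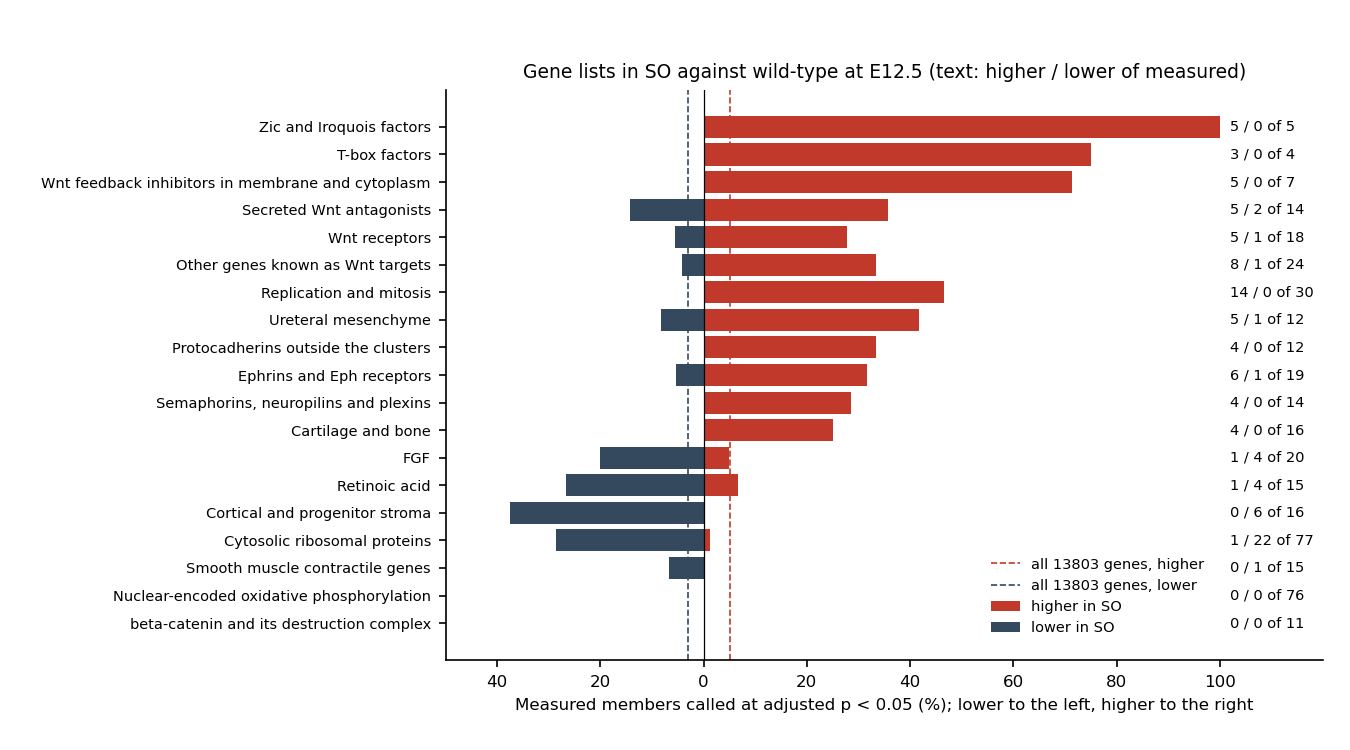
Share of the measured members of 19 gene lists that were called higher (right) or lower (left) in SO at E12.5, with the counts at the right and dashed lines at the share of all 13803 genes (5.17% higher, 3.0% lower). The Zic and Iroquois list has 5 of 5 members higher and holds only genes kept in the deposited table. The replication and mitosis list has 14 of 30 higher, and the cytosolic ribosomal list 22 of 77 lower.

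The rises were not limited to the groups above. Mybpc1, a myosin-binding protein of skeletal muscle, had log2 CPM 6.46, 6.64 and 6.97 in SO and -0.80, -0.88 and -1.96 in wild-type, from 2014 reads summed over the SO libraries and 12 over wild-type (240-fold, log2 difference 7.91 ± 0.76, adjusted p = 2.1e-07), although a stretch of it resembles Gm48752. Tmem132c, a membrane protein, was 7.11, 7.33 and 7.42 in SO and 1.02, 2.13 and 1.39 in wild-type (54.7-fold, log2 difference 5.77 ± 0.34, adjusted p = 8.6e-11). Mab21l1, a developmental gene of eye and limb, was 3.55, 3.58 and 4.59 in SO and -2.68, -4.34 and -1.11 in wild-type (98.4-fold, log2 difference 6.62 ± 0.85, adjusted p = 1.4e-05). In these 3 genes every SO library lay far above every wild-type library. The glutamate receptor subunit Gria2 rose 25.1-fold (log2 difference 4.65 ± 0.71, adjusted p = 0.00013), the nuclear receptor Rorb 31.3-fold (log2 difference 4.97 ± 0.98, adjusted p = 0.0019) and the leptin receptor Lepr 16.7-fold (log2 difference 4.06 ± 0.71, adjusted p = 0.00053). With smaller folds and tight libraries, the adhesion molecule Nectin1 was 6.95, 6.87 and 6.90 in SO and 5.34, 5.27 and 5.15 in wild-type (log2 difference 1.65 ± 0.10, adjusted p = 8.6e-11), the heparan sulfate proteoglycan Sdc2 7.90, 7.77 and 8.05 in SO and 6.08, 6.01 and 6.02 in wild-type (log2 difference 1.87 ± 0.12, adjusted p = 5.3e-10) and the basic helix-loop-helix factor Tcf12 9.57, 9.55 and 9.65 in SO and 8.51, 8.46 and 8.49 in wild-type (log2 difference 1.10 ± 0.07, adjusted p = 5.3e-10). Fat1, an atypical cadherin, rose 2.64-fold (log2 difference 1.40 ± 0.12, adjusted p = 3.8e-08), Irs1, an adaptor of insulin signalling, 2.52-fold (log2 difference 1.33 ± 0.14, adjusted p = 1.2e-06), and Sulf1, which trims heparan sulfate and so alters Wnt and FGF binding, 2.2-fold (log2 difference 1.13 ± 0.25, adjusted p = 0.0052). All of these held in all 6 leave-one-out fits, and all but Rorb, Lepr and Sulf1 were called with the 4 marker sums.

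Other falls, apart from the liver and erythroid transcripts named above, came from genes of several kinds. Cntnap2, a neurexin-family membrane protein, had log2 CPM -0.17, -0.51 and -3.73 in SO and 2.00, 2.29 and 1.83 in wild-type (11.4-fold lower, log2 difference -3.51 ± 0.61, adjusted p = 0.00052), and Ntsr1, the neurotensin receptor, 2.40, 2.43 and 3.04 in SO and 4.81, 4.64 and 4.52 in wild-type (4.09-fold lower, log2 difference -2.03 ± 0.27, adjusted p = 2.3e-05). Cadm1, an adhesion molecule, was 6.19, 6.07 and 5.86 in SO and 7.66, 7.47 and 7.69 in wild-type (log2 difference -1.57 ± 0.13, adjusted p = 3.0e-08), and Mapre2, a microtubule-end protein, 6.31, 6.21 and 6.28 in SO and 7.55, 7.45 and 7.29 in wild-type (log2 difference -1.16 ± 0.12, adjusted p = 6.9e-07), with the groups apart in both. Hic1, a repressor found in mesenchymal progenitors, was 8.19, 8.11 and 7.94 in SO and 9.23, 9.01 and 9.06 in wild-type (log2 difference -1.02 ± 0.12, adjusted p = 6.4e-06). The factor Mecom was 2.12-fold lower (log2 difference -1.08 ± 0.18, adjusted p = 0.00032), the receptor gene Kit 2.04-fold lower (log2 difference -1.03 ± 0.16, adjusted p = 0.00023) and the membrane peptidase Mme 2.12-fold lower (log2 difference -1.08 ± 0.17, adjusted p = 0.00017). Tent5c (-3.06), Trib3 (-2.99) and Ermap (-2.34) were also among the largest falls on the log2 scale, but Tent5c was lost without SO replicates 2 or 3 or wild-type replicates 1, 2 or 3 (adjusted p up to 0.19), Trib3 without SO replicates 2 or 3 or wild-type replicates 1, 2 or 3 (adjusted p up to 0.18) and Ermap without SO replicate 3 or wild-type replicate 3 (adjusted p up to 0.086). Ermap marks red cells and Lbp, lower as well (log2 difference -2.09 ± 0.59, adjusted p = 0.028) but lost without SO replicates 2 or 3 or wild-type replicates 1, 2 or 3 (adjusted p up to 0.13), encodes a protein of the liver, and the erythroid and liver sums were lower in the same libraries. Hspb1, Rps2 and Rpl41 were lower (-1.95, -1.93 and -2.06), and each has near-identical copies elsewhere, 32 of them for Rps2. Rpl41 lost its call without SO replicates 2 or 3 or wild-type replicates 1 or 3 (adjusted p up to 0.086). Ntsr1, Cadm1, Mapre2, Hic1, Mecom, Kit and Mme were called with the 4 marker sums in the fit, and the other genes of this paragraph were not.

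SO and wild-type libraries of E13.5, which share no library with those of E12.5, gave 2120 called genes of 13803, 1177 higher and 943 lower. Of the 713 genes called higher at E12.5, 436 (61.2%) were called higher at E13.5, which is 37.0% of the 1177 called there, and of the 414 called lower 224 (54.1%) were called lower, 23.8% of 943. The sign was the same in 1025 of the 1127 genes (90.9%), and 8 genes were called in opposite directions, 4 each way. The size of the effect differed between the stages in 183 genes (1.33%), with E12.5 the more positive in 0.609% of all genes and the more negative in 0.717%, and 56 of the 183 were called at E12.5 and 165 at E13.5. The test of that difference uses the libraries of both stages, so these overlaps are in part built in. The count of 183 became 61 to 177 in the fits that left out 1 library other than wild-type E13.5 replicate 1 (61 without wild-type E12.5 replicate 3) and 532 when that library was omitted, and 51 genes were called whichever of the 12 libraries was left out. Among the Wnt feedback genes Nkd1 (2.54 ± 0.13 at E12.5, 3.53 ± 0.13 at E13.5; difference -0.99, adjusted p = 0.0064) and Nkd2 (3.17 ± 0.21 and 4.71 ± 0.21; difference -1.54, adjusted p = 0.013) rose less at E12.5. Of 15 smooth muscle genes 9 rose at E13.5 and 0 at E12.5, and 4 had a called stage difference. Myh11 went from -0.35 ± 0.47 to 2.97 ± 0.47 (difference -3.32, adjusted p = 0.013), Tagln from 0.18 ± 0.30 to 2.50 ± 0.30 (difference -2.31, adjusted p = 0.0086) and Acta2 from 0.22 ± 0.27 to 2.30 ± 0.27 (difference -2.08, adjusted p = 0.0085). Aldh1a2 fell further at E13.5, from -1.47 ± 0.17 to -2.95 ± 0.17 (difference 1.48, adjusted p = 0.0028), as did Ntn1 (-0.95 ± 0.20 and -2.48 ± 0.20; difference 1.53, adjusted p = 0.0085). Tbx18, not called at E12.5, was 1.38 ± 0.16 at E13.5 (difference -1.15, adjusted p = 0.013). These stage differences held in all 12 leave-one-out fits. For the replication and mitosis list 14 rose and 0 fell at E12.5 and 4 rose and 6 fell at E13.5, and 1 of the 30 genes had a called stage difference. The median log2 difference of 16 endothelial genes was -0.68 at E12.5 and 1.62 at E13.5. That of 16 macrophage genes was -0.34 and 1.32, and 0 genes of either list had a called stage difference. Erythroid and liver medians were negative at both stages. The marker sums were not added to the fit of the stage difference, and their part in it was not tested.

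**Figure D5:**
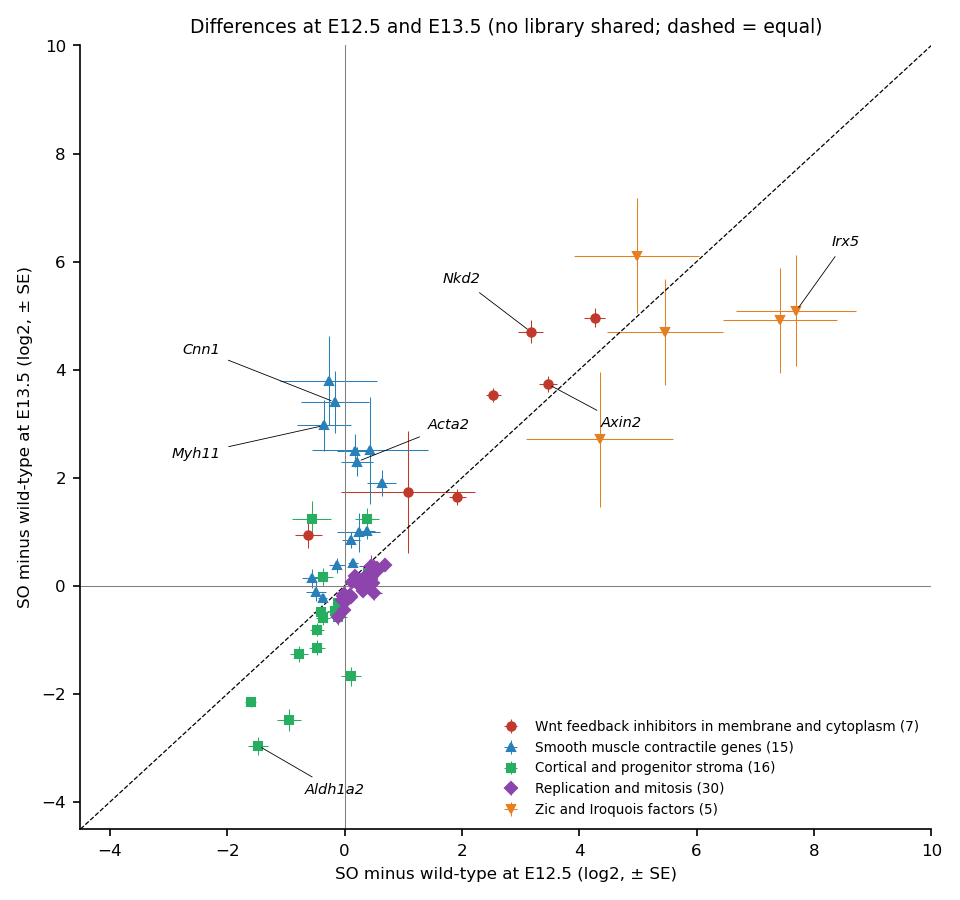
Log2 difference between SO and wild-type at E12.5 (horizontal axis) and at E13.5 (vertical axis), each ± SE, for the members of 5 gene lists, with a dashed line where both are equal. The 5 Wnt feedback genes called at E12.5 are positive at both stages, and Myh11 and Acta2 lie near 0 at E12.5 and above it at E13.5.

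The opposite manipulation, C57BL/6 stroma deficient in beta-catenin (SD) at E12.5 with its own wild-type libraries, called 237 of 13803 genes, 136 higher and 101 lower. The comparisons in SO and SD share no library, but strain goes with the line, so genotype and strain cannot be told apart in what follows. Of the 713 genes higher in SO, 39 (5.47%) were called lower in SD and 14 (1.96%) called higher, and of the 414 lower in SO, 40 (9.66%) were called higher in SD and 7 (1.69%) lower. Measured from the other side, the genes called in opposite directions were 38.6% of the 101 genes lower in SD and 29.4% of the 136 higher. The effects of SO and SD differed in 1020 genes (7.39%), with SO the more positive in 3.99% of all genes and the more negative in 3.4%, and 656 of the 1020 were among the 1127. The test of that difference uses the same SO and CD1 wild-type libraries as the 1127 calls, so part of this overlap is built in. Axin2 differed by 3.47 in SO and by -1.03 ± 0.15 in SD, Nkd1 by 2.54 and -0.26 ± 0.13, and Lef1 by 3.51 and -2.42 ± 0.42 (adjusted p of the difference 3.4e-12, 5.9e-10 and 6.2e-07). Sall1 stood at -1.60 in SO and 0.24 ± 0.09 in SD (adjusted p of the difference 2.1e-09). Some of the largest SO effects were of genes not called in SD. Notum was -1.36 ± 1.32 and Tmem132c -0.67 ± 0.34 in SD, beside 8.0 and 5.77 in SO (adjusted p of the difference 0.0023 and 6.4e-09). Of the 30 replication and mitosis genes 15 were more positive in SO than in SD and 0 more negative, with 0 called in SD itself. The marker sums were not added to the fit of the SO-SD difference.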

How the data were processed

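Messenger RNA of sorted E12.5 kidney stroma was measured in 3 SO and 3 wild-type libraries on a CD1 background. The deposited values are log2 CPM, with TMM scaling and 0.5 added to each count, found from the values. Per the submitters' processing notes the authors used HISAT2, HTSeq, limma and mm10. The sources used here do not give the filter, annotation or strand. From the values, 100% came out as whole reads within 0.1. Symbols were placed with GENCODE M21.

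The values were fitted with limma 3.58.1 (R 4.3.3) as 8 group means over 24 libraries, with an empirical Bayes trend and 16 residual and 6.43 prior degrees of freedom. The spread is thus shared by all groups. A call needs an adjusted p under 0.05 (Benjamini-Hochberg over 13803 genes, 2-sided). Fold changes are on the deposited scale and depend on the 0.5 for genes with few reads. Counting intervals and floors leave out amplification, because reads lack molecular identifiers and do not stand for independent molecules, so they cover counting error only. Depth ran from 6.18 to 10.0 M reads. BLAST 2.17.0 searched transcripts for copies of at least 95% identity over 200 nucleotides. Python 3.11.15 and matplotlib 3.10.9 drew the figures.

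The members and lists were chosen with earlier results of these data known. The rule named, among called genes whose groups do not overlap, with mean log2 CPM above 0 and a given name, the 15 largest rises and falls, the 10 smallest p and 10 highest levels each way (the latter at least 2-fold), 4 genes per list, the 6 largest each way for the stage and SO-SD differences, and Ctnnb1, Foxd1, Axin2, Lef1 and Nkd1. Other list members are named where a list is described, and were picked after their values were seen. Some items are not reported here. Alternatives changed the pseudocount, filter, scaling, fit, threshold, covariates and libraries. The count models planned for the recovered reads were left out, because the deposited unit is log2, and voom weights on those reads were fitted.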

Additional observations from a re-analysis of the deposited data

Results flagged for a closer look

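The effect of SO differed between E12.5 and E13.5 in 32 of the named genes, by limma's test of the difference with a Benjamini-Hochberg adjusted p under 0.05. Values are log2 and give the effect at E12.5 minus the effect at E13.5. In 15 of them the call held whichever of the 12 CD1 libraries was left out. Less positive or more negative at E12.5 were Rpl35a (-6.15), the smooth muscle genes Myh11 (-3.32) and Tagln (-2.31), Armh4 (-2.27), the heparan sulfatase Sulf1 (-1.98), the Wnt inhibitors Nkd2 (-1.54) and Nkd1 (-0.99), Tbx18 (-1.15), the BMP modulator Bmper (-1.08), Igfbp2 (-0.91) and Cwc22 (-0.74), which has 7 near-identical copies. More positive or less negative at E12.5 were Zbtb7c (1.31), Aldh1a2 (1.48), Ntn1 (1.53) and the glutamate receptor Grm3 (2.61).

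In the other 17 named genes the call was lost in at least 1 of the 12 fits that left out a library, in as many as 11 of them, with a largest adjusted p between 0.0551 and 0.152. Lower at E12.5 in this sense were Cnn1 (-3.56), Npy1r (-2.6), Eln (-1.81), Prrx1 (-1.0), Epha4 (-0.89), Zeb2 (-0.64) and Fbln1 (-0.46). Higher were Sall1 (0.54), Crabp2 (0.57), Mycl (0.74), Robo2 (0.80), Gdnf (1.2), Akr1b7 (2.23), Mcf2 (2.38), Ptgfr (2.43), Polr2l (2.84) and Epn3 (4.0). Polr2l has 3 near-identical copies. No group of the comparison has more than 3 libraries, so single libraries were not tested as outliers.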

How the results depend on the processing

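The count of changed genes, 1127 (713 higher, 414 lower), stayed within 1.5 times under 2 pseudocounts, 2 filters, 2 other scalings, voom weights and the 12 CD1 libraries alone, although with voom weights 255 genes were lower. It was 1781 (738 lower) in a fit of the 6 libraries alone, 357 (248 and 109) at a 2-fold minimum, 585 (393 and 192) at an adjusted p of 0.01, 207 (138 and 69) with 4 marker sums and 608 (381 and 227) with the erythroid sum, which was chosen after seeing the data. Leaving out 1 library gave 720 to 883 calls (455 to 559 higher, 259 to 324 lower), with 720 without SO replicate 3 and 740 without SO replicate 2. In these fits the stage difference of 183 genes ranged from 61 to 532 and the SO-SD difference of 1020 from 774 to 1036. The cause was not tested. SO has 6.18 to 6.67 M reads a library, which limits genes with few reads.

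The labels do not say whether replicate numbers pair the libraries, and the main fit did not pair them. Same-numbered SO and wild-type libraries had correlations of 0.0053, 0.023 and -0.027 between their deviations, and other pairs from -0.046 to 0.040. With 3 libraries a group these values cannot show whether a pairing exists. A replicate block gave 1022 calls, and 199 and 999 for the stage and SO-SD differences. Of these, 932, 134 and 861 were also called in the main fit.

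Among 280 named genes 16, none called, changed sign. Ptgfr fell to -0.0108 with size factors, -0.0041 with quantile scaling, -0.3513 with 4 marker sums, -0.0550 with the endothelial sum and -0.5438 with the erythroid sum. With 4 sums Tnnt1 was 0.0845, Erbb3 0.4314, Egfl7 0.0080, Hbb-y 0.4123, Gata4 -0.2808, Myh11 0.0152 and Tagln -0.1207. With the erythroid sum Erbb3 was 0.4111, Eng 0.0544, Tie1 0.7050, Hba-x 0.0296, Hbb-y 0.3932, Akr1b7 -0.0122, Cnn1 0.1377 and Myh11 0.0957. Akr1b7 was -0.0035 with the endothelial sum, and C1qb 0.1171 and C1qa 0.1753 with the liver sum. Leaving out 1 library gave ranges of -0.1044 to 0.7926 for Actc1, -0.9525 to 1.6024 for Gata4, -0.1956 to 0.2942 for Ptgfr, -0.3366 to 0.2554 for Akr1b7 and -0.4229 to 0.0221 for Cnn1. Over all settings, 536 single-gene values in 146 genes lost a call and 75 in 33 genes gained one. The planned count models on recovered reads were not run, because the deposited unit is log2.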
